A study of Mus musculus with 15 samples.

Results

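The 9 genes described here encode transcription factors that carry interferon and cytokine signals to the nucleus: 3 signal transducers and activators of transcription (Stat2, Stat3 and Stat4) and 6 interferon regulatory factors (Irf1, Irf2, Irf5, Irf7, Irf8 and Irf9). They were taken by gene symbol, out of 36264 genes in the table of miR-181 mice and 36257 in the table of GFP mice, and all 9 were found in both. The study injected an adeno-associated virus (AAV) into the substantia nigra, the midbrain nucleus that holds the dopamine neurons lost in Parkinson's disease, of naive C57Bl/6J mice, and left the opposite side of each brain uninjected. In 3 mice the vector was AAV-hSYN1-miR-181 at 1.65e10 vector genomes, and in 5 mice it was AAV-hSYN1-GFP, which encodes green fluorescent protein, at 1e10 vector genomes. Both vectors use the promoter of human SYN1, which is active mainly in neurons, and all tissue was taken 3 weeks after injection. RNA of whole dissected tissue gave 15 libraries: injected and uninjected sides of 3 miR-181 mice, injected sides of 4 GFP mice and uninjected sides of 5 GFP mice. The injected side of GFP mouse 5 was not analysed here, and the age and sex of the mice are not given in the sources used here. The comparisons ask how each side with vector differed from the uninjected side, and whether the change differed between the 2 vectors, which also differ in dose, read length and sequencer.

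As background, STAT proteins wait in the cytoplasm until a Janus kinase at a cytokine receptor phosphorylates them, then pair and enter the nucleus. STAT2 and IRF9 belong to ISGF3, the complex that forms after type I interferon and binds the interferon-stimulated response element (ISRE), while pairs of STAT proteins bind the gamma-activated site (GAS). Many genes of the family are themselves induced by the pathway they serve, and in brain they are studied in microglia, astrocytes and invading lymphocytes.

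The 15 libraries each had 15022 to 15563 genes at a value of 1 or more. Pairs of libraries within a group had Pearson correlations across genes of 0.962 to 0.987, and genes are not independent replicates. The uninjected library of GFP mouse 1 stood apart: the summed level of 4 pituitary hormone genes was 49980 there and 2442 on the injected side of that mouse, against a median of 3.86 in the uninjected and 7.22 in the injected GFP libraries. Each GFP result on the STAT and IRF genes was therefore also computed without both libraries of that mouse. Dopamine neuron markers were present in every library, with a summed level of 6 genes of at least 531.5. That lowest value was on the injected side of miR-181 mouse 2, against 1192 on its uninjected side. In miR-181 mice 1 and 3 the injected sums were 1211 and 834.2, against 1198 and 832.8 uninjected. Mature miR-181 was not measured in these messenger RNA libraries, so delivery of the vector was not checked here.

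The labels do not say which member of the miR-181 family the vector carries, and the 4 mouse members share 1 seed, the bases that pair with a target (bases 2 to 8, in capitals). They are shown, from RefSeq, because a miRNA finds its target messenger RNAs by this seed.
mmu-miR-181a-5p: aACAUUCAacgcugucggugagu
mmu-miR-181b-5p: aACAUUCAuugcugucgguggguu
mmu-miR-181c-5p: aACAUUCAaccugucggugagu
mmu-miR-181d-5p: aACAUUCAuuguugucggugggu
Matches to the seed were searched on the sense strand of the longest annotated 3′ untranslated region of each gene, as TGAATGT, or as GAATGTA, or as both together, TGAATGTA. Irf1 was the single member with a match, 1 site of 8 bases starting at base 142 of a region of 944 bases.
Irf1 site: aatttttcacttcatgtgccTGAATGTAtg
The other 8 members had 0 matches in regions of 253 (Stat4) to 3701 (Stat3) bases. Of all tested genes with an annotated 3′ untranslated region, 24.8% held such a match. Irf1 messenger RNA was higher in each of the 3 injected sides, as given below. A sequence match is a description of letters, not of binding, and action of miR-181 on Irf1 was not tested.

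Promoters of the 9 genes were then searched for the core letters of the 2 elements that STAT and IRF proteins bind, on both strands, from 250 bases before to 50 bases after the RefSeq start (GRCm38.p6). An ISRE core, GAAANNGAAA, was present in 3.44% of 32851 mouse promoters of that length, and a GAS, TTCNNNGAA, in 8.3%. Of the 9 members, Irf1 and Irf8 held GAS matches, Stat2 held an ISRE match, Irf2 held both, and Stat4 held an ISRE match in its second annotated start. Irf1, Irf8 and Irf9 also had a window at a second annotated start, without a match there. The shares of 3.44% and 8.3% count windows, so a count of genes cannot be set against them directly. These letters were not in the windows of Stat3 (gene at chr11:100885098-100939540, GRCm38), Irf5 (chr6:29526625-29541871), Irf7 (chr7:141262706-141266481) or Irf9 (chr14:55603571-55610030). These coordinates are those of whole genes, not of windows. The Irf9 windows began at bases 55603735 and 55604329, inside the gene, so bases before the gene's first base were not searched. The first 4 windows are shown, 5′ to 3′ on the gene's strand, with matches in capitals, because they hold the matches of the 4 tested members that have one.
Irf1, chr11:53769764-53770063 (+): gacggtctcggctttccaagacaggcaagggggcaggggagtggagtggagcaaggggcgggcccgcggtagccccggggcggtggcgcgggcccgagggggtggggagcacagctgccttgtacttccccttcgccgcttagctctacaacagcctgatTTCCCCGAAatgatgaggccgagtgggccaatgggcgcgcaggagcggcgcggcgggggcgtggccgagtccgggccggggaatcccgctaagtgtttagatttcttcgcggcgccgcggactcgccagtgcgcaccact
Irf8, chr8:120736108-120736407 (+): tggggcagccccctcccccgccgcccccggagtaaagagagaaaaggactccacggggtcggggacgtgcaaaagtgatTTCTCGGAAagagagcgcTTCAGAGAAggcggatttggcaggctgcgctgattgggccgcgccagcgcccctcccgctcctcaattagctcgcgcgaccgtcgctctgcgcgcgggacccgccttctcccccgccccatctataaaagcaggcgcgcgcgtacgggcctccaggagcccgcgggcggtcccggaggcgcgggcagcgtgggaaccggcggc
Stat2, chr10:128270248-128270547 (+): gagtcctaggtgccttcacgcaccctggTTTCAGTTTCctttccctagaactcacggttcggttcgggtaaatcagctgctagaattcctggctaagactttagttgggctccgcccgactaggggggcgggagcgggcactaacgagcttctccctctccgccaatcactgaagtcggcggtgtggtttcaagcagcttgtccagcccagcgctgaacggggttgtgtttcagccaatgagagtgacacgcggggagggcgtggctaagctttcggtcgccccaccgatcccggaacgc
Irf2, chr8:46739495-46739794 (+): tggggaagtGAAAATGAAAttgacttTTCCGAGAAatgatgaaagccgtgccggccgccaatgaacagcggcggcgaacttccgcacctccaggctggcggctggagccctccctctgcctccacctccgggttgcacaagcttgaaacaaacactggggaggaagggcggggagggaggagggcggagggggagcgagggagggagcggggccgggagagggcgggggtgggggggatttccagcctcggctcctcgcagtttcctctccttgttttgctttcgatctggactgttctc
The GAS match of Irf1, TTCCCCGAA, began 90 bases before the start. Irf8 held 2, TTCTCGGAA at 171 and TTCAGAGAA at 153 bases before the start. The ISRE match of Stat2 was on the opposite strand, read here as TTTCAGTTTC, 222 bases before the start. Irf2 held GAAAATGAAA at 241 and TTCCGAGAA at 224 bases before the start.

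On the uninjected side, Stat3 was the most abundant of the 9 and Stat4 the least. Values are the deposited abundances, which were read as scaled per transcript length (TPM-like, from their sums) and on that reading can be compared between genes. The uninjected level of Stat3 was 40.9 ± 1.85 (SD, n = 3) in miR-181 mice and 37.2 ± 1.18 (SD, n = 5) in GFP mice, and it overlapped with no other member. Stat2, at 18.4 ± 1.69 and 18.4 ± 1.63, and Irf2, at 17.8 ± 1.01 and 19.0 ± 5.10, came next and overlapped with each other in both sets. Irf9 followed at 11.9 ± 0.177 and 12.1 ± 1.35, and Irf1 at 7.51 ± 0.410 and 7.38 ± 2.14. The uninjected levels of Irf5 (5.49 ± 0.424 and 5.11 ± 0.902), Irf8 (5.40 ± 0.255 and 4.01 ± 0.580) and Irf7 (3.65 ± 0.603 and 4.36 ± 1.22) were close. The ranges of Irf5 and Irf8 overlapped in miR-181 mice, and in GFP mice so did those of each pair of neighbours from Irf9 through Irf1, Irf5 and Irf7 to Irf8. Stat4 was near 0, at 0.132 ± 0.0126 and 0.208 ± 0.142.

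**Figure D1:**
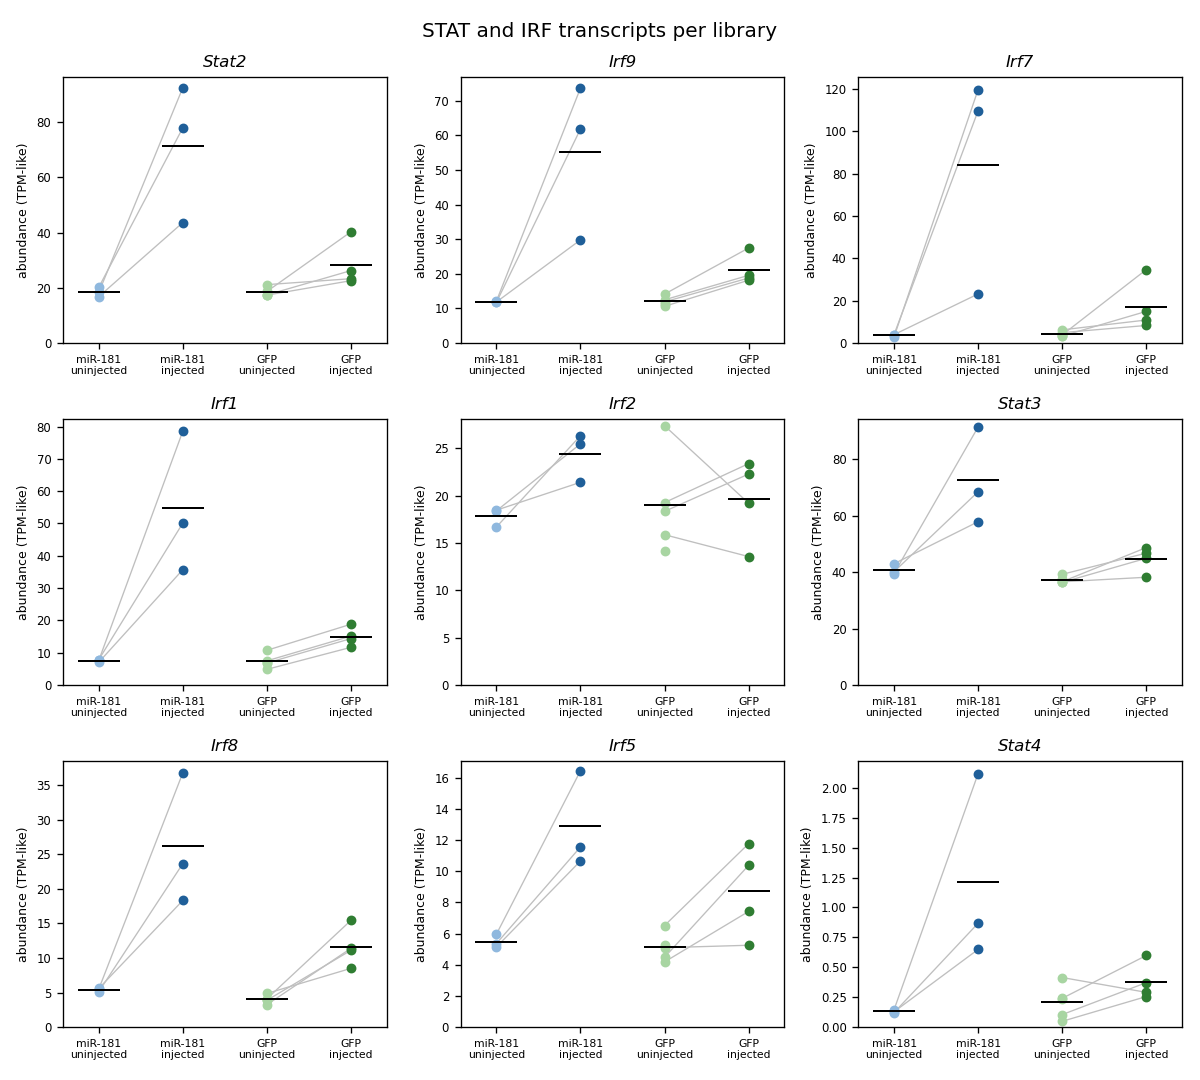
Deposited abundance (TPM-like, linear axis from 0) of the 9 genes in each of the 15 libraries, 1 panel per gene, with groups on the x axis, points for libraries, grey lines joining the sides of a mouse and bars for group means. In miR-181 mice the injected points of all 9 genes lie above the uninjected points, and for Irf7 they reach 119.8 from an uninjected range of 2.95 to 4.01.

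Injection of the miR-181 vector was accompanied by a rise of all 8 members that could be tested, from 1.35-fold for Irf2 to 16.5-fold for Irf7. Changes were tested with limma on log2(value + 0.5), over genes with a mean of at least 1, and called at a Benjamini-Hochberg adjusted p under 0.05. Fold changes are on that scale and understate changes of low genes. Of all 15453 genes tested in this comparison, 908 or 5.88% were called, 678 (4.39%) higher and 230 (1.49%) lower. With each library centred on its median, 634 were called higher and 468 lower, and the 8 members stayed called. In each of the 8 members every injected library lay above every uninjected library, which 16% of tested genes showed. Stat4 had a mean under 1 and was left out of the tests, while the 8 tested members had means above 1 on the uninjected side as well. The median log2 change of the 8 was 1.96, against 0.004 over all tested genes.

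With the GFP vector Irf8, Irf9 and Irf1 were called higher, 3 of 8 tested, where 206 of 15274 genes (1.35%) were called, 204 (1.34%) higher and 2 (0.0131%) lower. With mouse as a replicate block, 133 genes were called higher and 2 lower, and the calls of these 3 members held. Irf1, Irf7, Irf8, Irf9 and Stat2 had every injected library above every uninjected library, as did 3.29% of tested genes. The median log2 change of the 8 was 0.71, against 0.005 over all tested genes. The difference between the vectors, tested on its own further on, passed the threshold for 0 of the 8. In whole tissue, more cells of a type and more RNA per cell cannot be told apart, for these and all following values.

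Irf7 had the largest fold change of the 8 with miR-181 and, over all GFP libraries, with GFP. It is the factor that switches on type I interferon genes and that ISGF3 itself induces. Its level in miR-181 mice was 3.98, 2.95 and 4.01 on the uninjected side and 23.2, 119.8 and 109.8 on the injected side (mice 1 to 3). Mice 2 and 3 thus lay far above mouse 1, whose injected value was still above all uninjected ones. In GFP mice it was 3.84, 4.93, 3.31, 6.24 and 3.49 uninjected and 34.7, 8.32, 14.97 and 10.9 injected, so that GFP mouse 1 exceeded miR-181 mouse 1. The log2 change was 4.05 ± 0.59 (SE) in miR-181 mice (limma adjusted p = 0.0147), place 52 of 15453 when ordered from largest rise to largest fall. It was 1.69 ± 0.35 in GFP mice and missed the threshold (limma adjusted p = 0.0504), with place 107 of 15274. That GFP value passed without the injected library of mouse 1 (limma adjusted p = 0.0401) or of mouse 2 (0.0367), and did not with mouse as a block (0.232) or without both libraries of mouse 1 (0.0721). Without mouse 1 its GFP log2 change was 1.25, and that of Irf8, at 1.27, was the larger. Irf3, the constitutive partner factor of Irf7, stayed between 52.0 and 65.5 in all 15 libraries. The ratio of Irf7 to Irf3 levels was 0.0568 to 0.0759 on the uninjected sides of miR-181 mice and 0.444, 1.996 and 1.967 on their injected sides. In GFP mice it was 0.0541 to 0.106 uninjected and 0.574, 0.133, 0.243 and 0.167 injected.

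Irf1, the activator that interferon gamma induces, rose in both sets. Its level in miR-181 mice was 7.06, 7.60 and 7.86 uninjected and 35.7, 78.6 and 50.1 injected. GFP mice had 10.8, 6.82, 4.86, 7.50 and 6.98 uninjected and 18.8, 14.4, 11.7 and 15.2 injected. The groups did not overlap in either set, and the highest uninjected value was that of GFP mouse 1. The log2 change was 2.72 ± 0.26 (SE, 6.57-fold, limma adjusted p = 0.00398) with miR-181 and 1.00 ± 0.20 (1.998-fold, limma adjusted p = 0.0376) with GFP. The miR-181 call held without each of the 6 libraries in turn (highest limma adjusted p = 0.0338). The GFP call ended in 7 of 9 fits with 1 library left out, all but those without injected library 3 or uninjected library 1 (highest adjusted p = 0.128), and held without both libraries of mouse 1 (0.0257). Irf2, which competes with IRF1 for the same sites and mostly represses them, moved least. It was at 18.5, 16.7 and 18.4 uninjected and 21.4, 26.3 and 25.5 injected in miR-181 mice, a log2 change of 0.44 ± 0.09 (limma adjusted p = 0.0451), and this call was lost with mouse as a block (0.0769). In GFP mice Irf2 was at 27.4, 19.3, 15.9, 18.3 and 14.2 uninjected and 19.2, 23.4, 13.6 and 22.3 injected, with overlapping groups and a log2 change of 0.05 ± 0.20 (limma adjusted p = 0.96) whose sign changed with the library left out.

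Stat2 and Irf9, which encode subunits of ISGF3, both rose with miR-181, and Irf9 also rose with GFP. Stat2, the subunit that activates transcription, was at 16.8, 18.3 and 20.2 uninjected and 43.6, 92.5 and 77.9 injected in miR-181 mice. GFP mice had 18.7, 17.4, 17.4, 21.1 and 17.4 uninjected and 40.3, 26.2, 22.6 and 23.3 injected, without overlap but with mouse 1 well above the other 3. Its log2 change was 1.86 ± 0.26 (SE, limma adjusted p = 0.0129) with miR-181 and 0.56 ± 0.15 (0.164) with GFP. Irf9, the subunit that gives ISGF3 its DNA sequence preference, was at 11.9, 12.1 and 11.8 uninjected and 29.8, 73.7 and 61.9 injected in miR-181 mice. The GFP levels of Irf9 were 14.1, 12.5, 10.6, 11.9 and 11.2 uninjected and 27.5, 19.6, 18.2 and 18.8 injected. Both sets of Irf9 levels were free of overlap, and mice 2 and 3 again stood highest among miR-181 mice. The log2 change of Irf9 was 2.07 ± 0.30 (limma adjusted p = 0.0153) with miR-181 and 0.76 ± 0.13 (0.0174) with GFP. The GFP call of Irf9 held without both libraries of mouse 1 (limma adjusted p = 0.0068) and was lost without uninjected library 3 (0.0503) or 5 (0.0547). Irf9 shares its strand and locus with part of Rnf31, a ubiquitin ligase subunit, so reads could be split between them. Rnf31 changed by 0.61 ± 0.10 (limma adjusted p = 0.0187) with miR-181 and 0.16 ± 0.12 (0.732) with GFP. Irf8 likewise overlaps the gene model Gm20388 on its own strand, and Stat4 overlaps Gm28177. Reads could be split there too, and values of these gene models are not given here.

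Irf8 and Irf5 serve mainly myeloid cells: Irf8 directs the development and activation of microglia, and Irf5 acts below Toll-like receptors on cytokine genes. Irf8 was at 5.59, 5.49 and 5.11 uninjected and 18.3, 36.8 and 23.7 injected in miR-181 mice, and at 4.09, 3.87, 4.86, 3.24 and 3.98 uninjected and 15.4, 11.1, 8.499 and 11.4 injected in GFP mice. Every injected library lay above every uninjected one in both sets. The log2 change of Irf8 was 2.13 ± 0.23 (SE, 4.36-fold, limma adjusted p = 0.00595) with miR-181 and 1.41 ± 0.16 (2.65-fold, 0.00219) with GFP, and both calls held without each single library. Irf5 was at 5.14, 5.96 and 5.36 uninjected and 10.7, 16.4 and 11.6 injected in miR-181 mice, a log2 change of 1.14 ± 0.17 (limma adjusted p = 0.0147). The GFP levels of Irf5 were 4.48, 6.51, 5.09, 4.18 and 5.26 uninjected and 10.4, 11.8, 5.25 and 7.42 injected. Here GFP mouse 3 did not rise and the groups overlapped, with a log2 change of 0.67 ± 0.21 (limma adjusted p = 0.271). Without that injected library the change of Irf5 was 0.88 (limma adjusted p = 0.0491).

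Markers of microglia rose on the same sides. The summed level of 10 microglia markers was 433.7 to 458.2 on uninjected and 897.8 to 1466 on injected sides of miR-181 mice, and 330.2 to 433.7 and 585.9 to 736.8 in GFP mice. Of the 10, 8 were called higher with miR-181 and 7 with GFP, and none was at 0 throughout a group. The miR-181 count was 4, 3 and 4 without uninjected libraries 1, 2 and 3. With mouse as a block the GFP calls of Siglech (limma adjusted p = 0.086) and Trem2 (0.0813) were lost and that of Cx3cr1 gained, 6 in all. Expressed as a percentage of this sum, Irf8 was at 1.22% ± 0.0362 (SD, n = 3) uninjected and 2.25% ± 0.239 injected with miR-181, with ranges of 1.18 to 1.25 and 2.04 to 2.51. With GFP it was at 1.09% ± 0.212 (n = 5) and 1.75% ± 0.266 (n = 4), where the ranges of 0.944 to 1.46 and 1.45 to 2.10 overlapped. In GFP mouse 3 the Irf8 percentage did not rise, at 1.46 uninjected and 1.45 injected. Irf5 as a percentage of the same sum was 1.24% ± 0.117 and 1.13% ± 0.0571 with miR-181, and 1.38% ± 0.256 and 1.31% ± 0.398 with GFP, and the ranges overlapped in both sets. Relative to the marker sum, Irf8 was thus higher on every injected than on every uninjected side of miR-181 mice. The share of all tested genes that were so relative to this sum was not counted. These percentages depend on which markers are summed. With miR-181 the mean of C1qa, a complement gene of the list, went from 96.95 uninjected to 463.9 injected. The markers not called, P2ry12 and Sall1, went from 35.8 to 41.5 and from 16.1 to 20.5. How far the change in microglial RNA sets the levels of Irf8 or Irf5 was not tested.

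**Figure D2:**
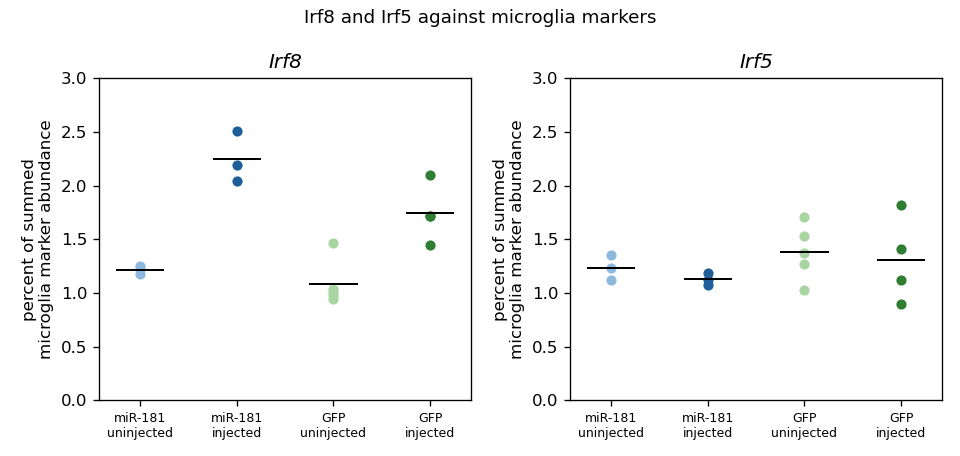
Irf8 and Irf5 as a percentage of the summed level of 10 microglia markers, by group, with points for libraries and bars for means. The Irf8 percentage of injected miR-181 sides (2.04 to 2.51) lies above that of their uninjected sides (1.18 to 1.25), whereas the Irf5 percentages overlap.

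Stat3, which answers cytokines of the interleukin 6 family and is studied in reactive astrocytes, rose with miR-181. It was at 43.0, 39.5 and 40.1 uninjected and 57.9, 91.4 and 68.5 injected in miR-181 mice, without overlap. GFP mice had 39.2, 36.4, 36.6, 36.6 and 37.4 uninjected and 46.7, 44.9, 38.2 and 48.7 injected, where mouse 3 fell within the uninjected range. The log2 change was 0.80 ± 0.15 (SE, 1.74-fold, limma adjusted p = 0.0335) with miR-181 and 0.25 ± 0.07 (0.158) with GFP. With mouse as a block the miR-181 call was lost (limma adjusted p = 0.0535), and without injected library 3 the GFP change of 0.32 passed (0.0147). Of 7 astrocyte markers, limma called 1 with miR-181, Aqp4, a call lost with mouse as a block (0.0594), and 0 with GFP, with 2 at an unadjusted p under 0.05 in each set. Over all genes tested, 23.5% had such a p with miR-181 and 9.52% with GFP, and the list counts at an unadjusted p given here and below stand against these shares. The 7 astrocyte markers summed to 2604 to 2715 on uninjected and 2650 to 2691 on injected sides of miR-181 mice. Aldoc made up most of that sum, with means of 1607 uninjected and 1550 injected. The sum can therefore miss a rise such as that of Aqp4, from 179.3 to 245.1. Gfap and Vim, counted with the STAT3 targets below, were called higher with miR-181 (limma adjusted p = 0.0206 and 0.0186). The mean of Gfap went from 412.6 to 815.1 and that of Vim from 55.3 to 100.6. Both calls held with mouse as a block (0.033 and 0.0094). With 1 library left out they were lost in 4 of 6 fits for Gfap and 3 of 6 for Vim. Their GFP values are given below. Stat3 overlaps Stat5a on the opposite strand, and the library kit keeps strand.

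Stat4, which carries the interleukin 12 signal in T and natural killer (NK) cells, was low everywhere. It was at 0.128, 0.145 and 0.121 uninjected and 0.650, 2.12 and 0.869 injected in miR-181 mice, with all injected values above all uninjected ones. GFP mice had 0.240, 0.414, 0.0480, 0.104 and 0.233 uninjected and 0.599, 0.290, 0.255 and 0.371 injected, and these groups overlapped. With no filter on low values, limma gave adjusted p values of 0.105 with miR-181 and 0.728 with GFP, so neither change passed. The sum of 12 T and NK cell markers was 4.08 to 8.83 on uninjected and 22.4 to 123.0 on injected sides of miR-181 mice, and 3.54 to 7.12 and 11.03 to 16.7 in GFP mice. Of these markers 7 of 10 tested were called higher by limma with miR-181 and 0 of 3 with GFP (1 at an unadjusted p under 0.05), and none was at 0 in all libraries of a group. The 7 called had uninjected means of 0.0265 (Gzmb) to 0.472 (Cd3e) and passed the filter through their injected libraries. Being tested thus depended on the rise itself, and 7 of 10 cannot be set against 0 of 3. The count of 7 was 0 without any 1 uninjected library or injected library 3. The part of these cells in the Stat4 values was not tested.

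Leaving out 1 library at a time decided many of the miR-181 calls. Without any 1 of the 3 uninjected libraries, or without injected library 3, Irf1 and Irf8 were the 2 members that stayed called. The other 6 then gave highest limma adjusted p values of 0.0729 (Stat2), 0.136 (Stat3), 0.17 (Irf2), 0.0763 (Irf5), 0.0827 (Irf7) and 0.0812 (Irf9), and Irf2 also lost its call without injected library 2. The log2 change of each of the 8 stayed above 0 in all these fits.

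The mice ranked alike across the 9 genes in the miR-181 set. In miR-181 mice, mouse 2 had the largest and mouse 1 the smallest log2 change in all 9 genes. The share of all tested genes with this order was not counted, so the order cannot be read as particular to the 9. Irf7 changed by 2.40, 5.12 and 4.61 in mice 1, 2 and 3, Irf1 by 2.26, 3.29 and 2.60, and Irf9 by 1.29, 2.56 and 2.35. Among GFP mice, mouse 1 had the largest change in 6 of the 9, mouse 4 in 2 and mouse 3 in 1. The marker sums moved in part in the same order: microglia markers changed by 0.97, 1.74 and 1.31 in miR-181 mice 1 to 3 and T and NK cell markers by 2.32, 4.41 and 2.43. In GFP mice 1 to 4 these changes were 0.76, 0.76, 0.82 and 1.01, and 0.96, 1.03, 0.84 and 1.41. Summed dopamine neuron markers changed by 0.015, -1.164 and 0.002 in miR-181 mice 1 to 3. In GFP mice 1 to 4 they changed by 0.013, -0.067, 0.418 and 0.157.

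**Figure D3:**
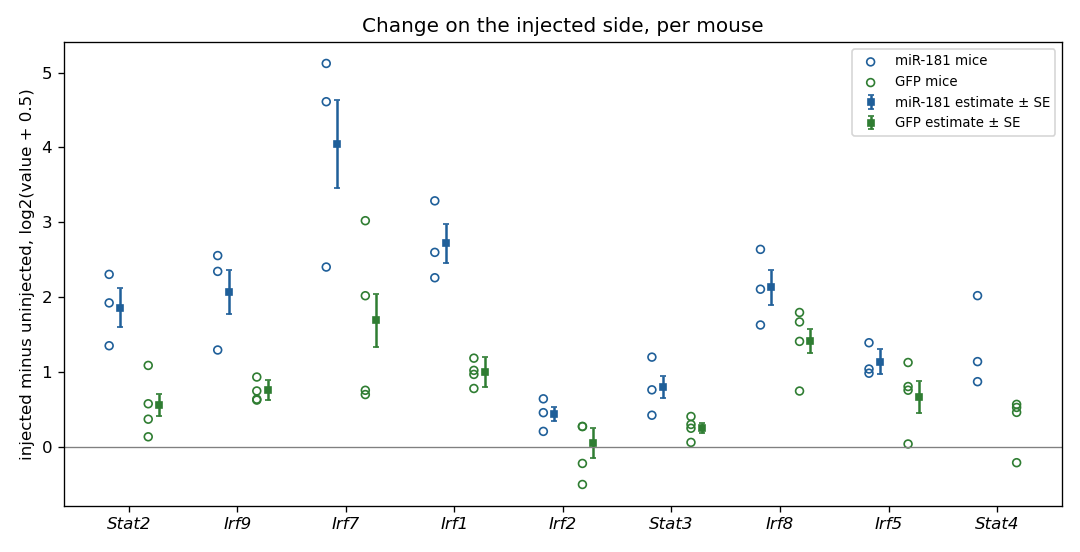
Log2 change of each gene from the uninjected to the injected side of each mouse, with open points for the 3 miR-181 mice and the 4 GFP mice with both sides, and squares with bars for the estimate over all libraries ± SE (none for Stat4, which was not tested). For Irf1, Irf9, Stat2, Stat3 and Stat4 every miR-181 mouse lies above every GFP mouse, while Irf7, Irf8, Irf5 and Irf2 overlap.

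Whether the 2 vectors differed was tested on these per-mouse changes, 3 miR-181 against 4 GFP mice. The change was larger with miR-181 by 1.73 ± 0.23 (SE) on the log2 scale for Irf1, by 1.33 ± 0.27 for Irf9 and by 1.32 ± 0.27 for Stat2, but 0 of 8 members passed the adjusted threshold. The limma adjusted p was 0.0769 for Irf1 and 0.114 for both Irf9 and Stat2. It was 0.203 for Irf7, 0.206 for Stat3, 0.318 for Irf8, 0.324 for Irf2 and 0.438 for Irf5, with differences of 2.42 ± 0.75, 0.54 ± 0.17, 0.72 ± 0.30, 0.48 ± 0.21 and 0.46 ± 0.25. At an unadjusted p under 0.05, 7 of 8 members were higher with miR-181, against 7.15% of all genes tested. In 4 of the 8, Irf1, Irf9, Stat2 and Stat3, every miR-181 mouse changed by more than every GFP mouse, as did 6.96% of all genes tested. Of 15451 genes, 1 (0.00647%) was called, the gene model Gm8430. Without miR-181 mouse 1, Irf9 (limma adjusted p = 0.00571), Irf1 (0.0151) and Stat2 (0.0321) passed, and with an interaction term over all 15 libraries in place of paired differences Irf1 passed (0.049). Vector, dose, read length and sequencer change together here and cannot be told apart.

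On the injected side the order of the 9 genes was no longer that of the uninjected side. In miR-181 mice Irf7 had the highest mean, 84.3 ± 53.1 (SD, n = 3), followed by Stat3 at 72.6 ± 17.2, Stat2 at 71.4 ± 25.1, Irf9 at 55.1 ± 22.7, Irf1 at 54.8 ± 21.8, Irf8 at 26.3 ± 9.51 and Irf2 at 24.4 ± 2.63. Each of these overlapped with its neighbour, so their order is not fixed by 3 mice, while Irf5 at 12.9 ± 3.12 and Stat4 at 1.21 ± 0.793 lay apart. In GFP mice Stat3 stayed first at 44.6 ± 4.57 (n = 4), and Irf7 reached 17.2 ± 11.98. The 9 levels summed to 108.8 to 112.9 on uninjected sides and to 241.3, 537.6 and 429.7 on injected sides of miR-181 mice. Irf7 made up 2.72% to 3.56% of that sum uninjected and 9.62%, 22.3% and 25.6% injected. The share of Stat3 went the other way, from 35.6% to 38.4% uninjected to 23.98%, 17.0% and 15.9% injected.

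**Figure D4:**
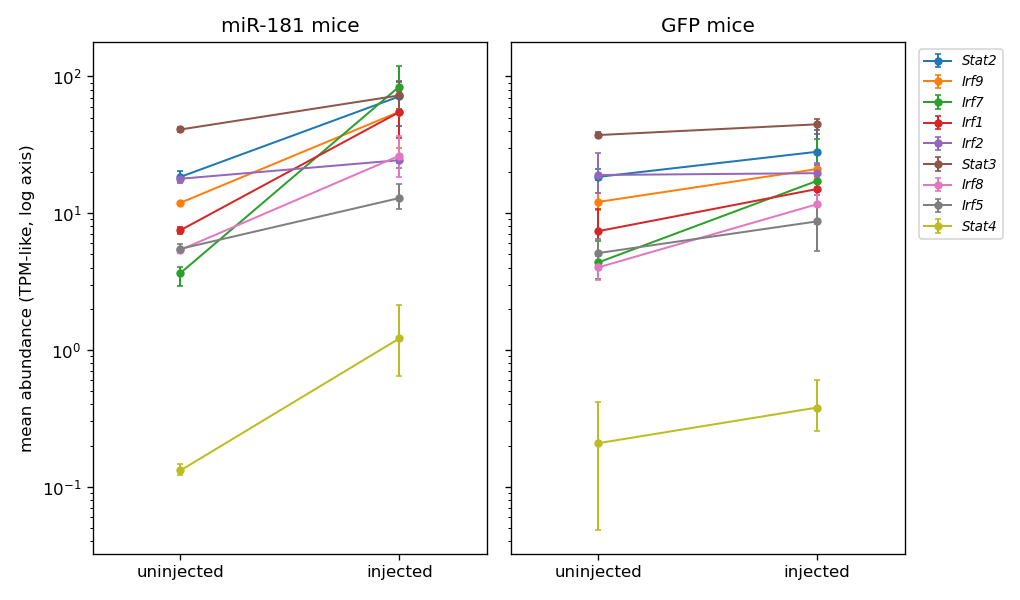
Mean abundance (log scale) of the 9 genes in the 4 groups, with lines joining the sides and bars from the lowest to the highest library. Irf7 goes from 3.65 to 84.3 in miR-181 mice and from 4.36 to 17.2 in GFP mice, and Stat3 starts highest in both sets.

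Among themselves, the members' 7 per-mouse changes were most alike for Stat2 and Irf9 (Pearson r = 0.951), followed by Irf1 with Irf9 and Irf7 with Irf9 (both 0.937). They were least alike for Irf2 with Irf7 (0.324) and Irf2 with Irf5 (0.431). These values describe 7 mice of 2 sets that differ in level, and libraries are shared by all genes. Of 13783 other genes compared, those most like Irf9 were Herc6 (r = 0.998), Rnf213 (0.994) and Oasl2 (0.993), all known as interferon-induced. Stat2 was most like Ccdc117 and Mef2c (both 0.992), and Stat3 was most like Tapbp (0.994), C1qc (0.992) and Msn (0.986). Irf1 came with Slco2b1 (0.994), Dennd4c (0.993) and Mrps18b (0.989), Irf2 with Apobec1 (0.990), Gpt2 (0.980) and Pds5a (0.979), and Irf5 with Mfsd13a, Usp38 and Camk2d (all 0.972). Irf7 came with Myt1l (0.980), Noc2l (0.979) and Ifit1 (0.978), and Irf8 with Cotl1 (0.979), Wbp1l (0.975) and Lxn (0.975). With so many genes and 7 points, such values are a description only.

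Of 5 other STAT and IRF genes, 5 were tested with miR-181 and 4 with GFP, and limma called 0 in either set, with 2 at an unadjusted p under 0.05 with miR-181 and 0 with GFP. With miR-181, Irf4, a lymphocyte factor, changed by 1.47 (limma adjusted p = 0.0987) and Stat6, which answers interleukin 4, by 0.66 (0.063), and neither passed. Irf4 had an uninjected mean of 0.254 in miR-181 mice and passed the filter through its injected libraries. It was not tested with GFP, so the counts of the sets cover different genes. Stat5a, which overlaps Stat3 on the other strand, changed by 0.41 (limma adjusted p = 0.227). With GFP, Stat5b and Irf3 changed by 0.06 each (limma adjusted p = 0.8 and 0.804). Without the injected library of miR-181 mouse 1, 2 of the 5 were called.

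The ligands that feed the pathway were mostly too low to test, while several of their receptors rose. Of 20 interferon and cytokine genes, 1 was tested with miR-181 and 2 with GFP, and limma called 0, with 0 at an unadjusted p under 0.05. Cntf changed by 0.20 with miR-181 (limma adjusted p = 0.574) and Il12a by 0.24 with GFP (0.845). Ifng, the gene of interferon gamma, was at 0 to 0.0536 on uninjected and at 0.420 to 1.63 on injected sides of miR-181 mice, and was listed at 0 in all 9 GFP libraries. Ifnb1, a type I interferon, was listed at 0 in all libraries but 1 injected miR-181 library, at 0.266. Other untested ligands also lay apart in miR-181 mice, all at low levels. Il27 went from 0.0536 to 0.0655 uninjected to 0.449 to 1.26 injected, and Il12b from 0 to 0.0329 to 0.161 to 1.85. Osm (0.106 to 0.252, then 0.414 to 0.924), Il6 and Il10 did so too, while Il21, Il23a, Lif and Clcf1 overlapped. In GFP mice the ranges of Il27, Il12b, Osm, Il6 and Il10 overlapped or touched. Of 17 receptor genes, 7 of 14 tested were called higher with miR-181 and 1 of 13 with GFP, and 0 lower. Il10ra, a receptor chain for interleukin 10 that signals through STAT3, changed by 1.77 with miR-181 (limma adjusted p = 0.00942) and 0.79 with GFP (0.0238). The GFP call of Il10ra was lost with mouse as a block (0.0869) and in 7 of 9 fits with 1 library left out. Il12rb1, which precedes STAT4, changed by 2.48 (limma adjusted p = 0.0114) and Il21r by 1.76 (0.0192) with miR-181, and by 0.66 (0.149) and 0.76 (0.114) with GFP. The miR-181 receptor count was 0 or 1 without any 1 uninjected library or injected library 3, 3 without injected library 2 and 11 without injected library 1.

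Between receptor and factor stand kinases, inhibitors and cofactors. Of the 4 Janus kinase genes limma called 0 in either set, with 3 at an unadjusted p under 0.05 with miR-181 and 1 with GFP. Jak3 changed by 1.01 with miR-181 (limma adjusted p = 0.0679) and 0.39 with GFP (0.222). Of the brakes, 2 of 17 tested were called higher with miR-181: Ptpn6, a phosphatase of Janus kinases (2.15, limma adjusted p = 0.0102), and Usp18, which removes ISG15 and blocks the type I receptor (3.45, 0.0215). With GFP 1 of 17 was called, Usp18 (1.66, limma adjusted p = 0.0133), while Ptpn6 changed by 0.79 (0.129). Socs3, the STAT3 feedback inhibitor, changed by 1.32 with miR-181 (limma adjusted p = 0.0886) and did not pass. Of 15 genes of the route that activates IRF proteins, 6 were called with miR-181, among them Tlr7 (1.70, limma adjusted p = 0.0158), Unc93b1 (1.42, 0.0165) and Tlr9 (1.57, 0.024), an endosomal receptor pair and their chaperone. With GFP 1 of 15 was called, Unc93b1 (0.90, limma adjusted p = 0.00104), which held without each single library. Sting1, the sensor adaptor, changed by 1.05 (0.0781) and Tlr7 by 0.72 (0.167) with GFP. Of the cofactors, 2 of 10 were called with miR-181, Batf2 (3.02, limma adjusted p = 0.0139) and Spi1, the myeloid partner of IRF8 (1.34, 0.0229), and 0 of 7 with GFP (2 at an unadjusted p under 0.05), where Spi1 changed by 0.75 (0.154). Batf2 had an uninjected mean of 0.259 in miR-181 mice and passed the filter through its injected libraries. Nmi, which binds STAT proteins, changed by 1.35 (0.0558) with miR-181 and 0.63 (0.21) with GFP. The call of Spi1 was lost with mouse as a block (0.0505), and the counts of brakes, activation route and cofactors with miR-181 were 0 without any 1 of the uninjected libraries. Without injected library 3 they were 1, 0 and 0, without injected library 2 they were 1, 3 and 2, and without injected library 1 they were 4, 9 and 4.

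Known targets of the factors were called in both sets. All 12 ISGF3 targets were called higher with miR-181, with a median log2 change of 3.30, and 6 of 12 with GFP, median 1.45. With mouse as a block the GFP calls of Isg15 (limma adjusted p = 0.0637), Ifit3 (0.0574) and Oas1a (0.0522) were lost and those of Ifit1 and Rtp4 gained, 5 in all. Oasl2, of the oligoadenylate synthetase family, changed by 4.27 (limma adjusted p = 0.00841), Bst2, the tether of budding virus, by 3.46 (0.0105) and Rtp4 by 2.96 (0.0115) with miR-181. With GFP, Bst2 changed by 2.07 (limma adjusted p = 0.00623) and Oasl2 by 1.73 (0.021). The miR-181 count of 12 became 0 without uninjected library 1 or 2, 2 without uninjected library 3 or injected library 3 and 5 without injected library 2. The GFP count of 6 became 2 without injected library 4 or uninjected library 2, 3 or 5, and 3 without uninjected library 4. Targets of Irf1 and interferon gamma, which serve antigen presentation and cell-autonomous defence, were called in both sets: 12 of 13 with miR-181 (median 3.79) and 11 of 13 with GFP (median 2.15). Igtp, an immunity GTPase, rose from 6.35 ± 0.991 (SD, n = 3) to 286 ± 143 with miR-181, a log2 change of 5.27 (limma adjusted p = 0.00225). Tap1, the peptide transporter, changed by 3.74 and Irgm1 by 3.98 (both 0.0027). With GFP, B2m, the light chain of class I molecules, changed by 2.01 (limma adjusted p = 0.000597), Psmb8 by 2.15 (0.00104) and Cxcl9, a T cell attractant, by 3.64 (0.00199). Cxcl9 had uninjected means of 0.476 in miR-181 and 0.149 in GFP mice, and passed the filter through its injected libraries. The miR-181 count stayed between 10 and 12 with 1 library left out, and the GFP count fell to 7 without injected library 4.

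Of 11 tested STAT3 targets, 9 were called higher with miR-181 (median 1.32) and 3 with GFP (median 0.69). Serpina3n, an acute-phase protease inhibitor of reactive astrocytes, rose from 24.6 ± 1.04 (SD, n = 3) to 136 ± 40.3 with miR-181, a log2 change of 2.41 (limma adjusted p = 0.0027). Lcn2 changed by 2.08 (limma adjusted p = 0.00651) and Timp1 by 1.70 (0.012). Lcn2 had an uninjected mean of 0.622 in miR-181 mice and passed the filter through its injected libraries. With GFP, Serpina3n changed by 1.69 (limma adjusted p = 0.0249), Vim by 0.56 (0.0274) and Gfap, the astrocyte filament, by 0.83 (0.0492). With mouse as a block 1 of these 3 GFP calls held, Gfap (0.0452). The miR-181 count was 2 to 4 without any 1 uninjected library or injected library 3. The GFP count was 0 without injected library 2 or 4 or uninjected library 2, 3 or 5, 1 without uninjected library 4, and 1 without both libraries of mouse 1. Of the STAT4 axis, 1 of 3 tested was called with miR-181, Il12rb1, a call lost without any 1 uninjected library or injected library 3 (highest limma adjusted p = 0.0624), and 0 of 2 with GFP (1 at an unadjusted p under 0.05), where Il18rap changed by 0.42 (limma adjusted p = 0.146). For the difference between the vectors, limma called 0 genes of the 11 lists, while 12 of 12 ISGF3 targets, 11 of 13 Irf1 and interferon gamma targets and 2 of 11 STAT3 targets had an unadjusted p under 0.05, against 15.3% of all genes tested.

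**Figure D5:**
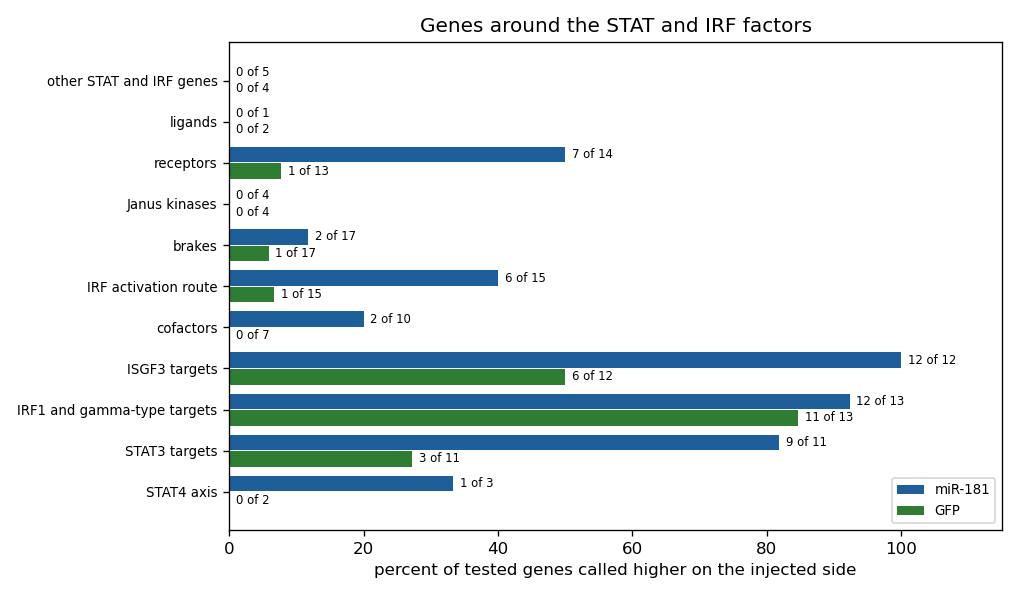
Percent of the tested genes of each list that were called higher on the injected side, with miR-181 and GFP bars and the count beside each bar. The bars of ISGF3 targets (12 of 12 and 6 of 12) and of Irf1 and interferon gamma targets (12 of 13 and 11 of 13) are the longest, and those of ligands and Janus kinases are at 0.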

How the data were processed

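PolyA RNA of substantia nigra was sequenced with strand kept, as 75-base reads for miR-181 mice and 50-base reads for GFP mice, per the labels. The submitters' processing notes name kallisto 0.43.1, sleuth 0.30.0 and GRCm38. The deposited value of each gene and library was read as a signal, an abundance like TPM divided by 1 size factor, from sums of 970505 to 1040288. The authors normalized the 2 tables separately, and depth per library is unknown, so values carry no counting interval. Of 56305 rows, 36660 held values, and rows repeating a symbol and all its values (396 and 403) were dropped. For a symbol under 2 identifiers with different values, the one with the higher mean was used. 0 columns were left unmapped.

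The members and the gene lists were chosen with earlier results of these data known. Injected and uninjected sides were compared with limma 3.58.1 (R 4.3.3, intensity trend) on log2(value + 0.5), over genes with a mean of at least 1, 2-sided, with Benjamini-Hochberg adjustment over all genes tested. This mean covers both sides, so a gene near 0 on the uninjected side was tested only where it was high on the injected side. Differences between vectors were tested on per-mouse changes. The planned test assumed TPM and was kept. The fit was checked on data with known changes. Named genes were the 9 members, the 3 list genes with the smallest p in each comparison, and the 3 genes most like each member, and genes named beyond these were chosen after their values were seen. Alternatives were 2 pseudocounts, 2 filters, 2 scalings, no trend, mouse as a replicate block, and leaving out each library. A mouse number marks both sides of 1 animal, per the labels, and so pairs them. As a check, deviations from group means were correlated between sides: r was 0.183, 0.140 and 0.257 for the miR-181 set, and 0.192, 0.0947, 0.0177 and 0.122 for the GFP set. Whether mice were handled separately beyond dissection is not given in the sources used here. Some listed genes are not reported here. Locations follow GENCODE M21.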

Additional observations from a re-analysis of the deposited data

Results flagged for a closer look

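Irf9 on the injected side of GFP mouse 1 was at 27.5, far from the other 3 injected GFP libraries, with a gap of 0.849 of the group's range. The log2 change of Stat4 in GFP mouse 2 was -0.21, far below the other 3 GFP mice, with a gap of 0.863 of the range, at levels under 1. A total of 27 groups of values were examined in this way and 2 stood out, where chance alone gives about 1 in 20.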

How the results depend on the processing

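With miR-181, 908 genes were called, 315 with no filter and 449 with no intensity trend, and 117 to 1924 with 1 library left out. Of the members, 8 were called, 4 with no filter (Irf7, Irf9, Stat3 and Irf2 lost) and 2 to 8 with 1 library left out. Median centring moved the share of higher calls from 74.7% to 57.5%. With GFP, 206 genes were called, 136 at a mean of at least 5, 135 with mouse as a replicate block and 108 to 255 with 1 library left out. Of the members, 3 were called, and 1 to 5 with 1 library left out. For the difference between vectors 1 gene was called, 0 with no filter, 4 at a mean of at least 5, 3 with no intensity trend, 62 with no replicate block and 0 to 306 with 1 mouse left out. Of the members 0 were called, 1 with no replicate block and 0 to 3 with 1 mouse left out. The log2 change of Irf2 with GFP, 0.05, reversed to -0.04 with mouse as a replicate block and ranged from -0.04 to 0.21 with 1 library left out. The cause of these shifts was not tested. With mouse as a replicate block the miR-181 calls of Stat3 and Irf2 were lost and no other member's call changed. Unknown depth and 3 to 5 libraries a group limit precision.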

Other observations

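Markers of other cell types were counted by the same limma tests. With miR-181, 3 of 5 tested B and plasma cell markers were called higher, 1 of 6 monocyte and perivascular macrophage markers (Ly6c2) and 1 of 3 dendritic cell markers (Itgax), while Flt3 of the dendritic cell list was called lower. Of those called higher, Cd79b, Mzb1 and Itgax had uninjected means of 0.425, 0.422 and 0.533. They passed the filter through their injected libraries, so these counts depend on the rise itself. With 1 library left out, the B and plasma cell count ran from 0 to 5. Ly6c2 and Flt3 each lost the call in 5 of 6 such fits, and Flt3 also with mouse as a replicate block (limma adjusted p = 0.0764). With GFP, 1 of 2 B and plasma cell markers was called, Jchain, which lost the call in 4 of 9 fits with 1 library left out and with the block (0.13). Itgax was also called with GFP, held without each single library and lost the call with the block (0.0636), and 0 of 6 monocyte and perivascular macrophage markers were called (2 at an unadjusted p under 0.05). In GFP mice the uninjected means of Jchain and Itgax were 0.893 and 0.358, and both passed the filter through their injected libraries. Of 6 neutrophil markers Csf3r alone was high enough to test. It was at 7.58 ± 0.299 (SD, n = 3) uninjected and 24.2 ± 5.68 injected with miR-181, and was called in both sets without each single library and with the block (0.0131 and 0.0335). The other 5 neutrophil markers had group means under 1 in every group. Of 6 markers each of oligodendrocytes, endothelial cells, neurons and dopamine neurons, limma called 0 in either set. At an unadjusted p under 0.05 there were 0, 0, 3 and 1 with miR-181 and 3, 0, 1 and 0 with GFP, against 23.5% and 9.52% of all genes tested.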
